A study of Mus musculus with 6 samples.

Results

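H3K4me3 peaks that lie away from annotated transcript starts were described in mouse colonic organoids, that is, three-dimensional cultures of colon epithelial cells, from the C57BL/6 strain. Untreated organoids (wt) were compared with organoids given TNFα at 40 ng/ml for 3 weeks (wt+TNFa), and each condition had 1 H3K4me3, 1 H3K27me3 and 1 input library. The members were the autosomal H3K4me3 peaks that did not overlap the 1000 bp on either side of any transcript start in the GENCODE annotation of GRCm38/mm10. This left 856 of 11233 autosomal peaks in wt (7.62%) and 992 of 11565 in wt+TNFa (8.58%), here called distal peaks. The other 10377 and 10573 autosomal peaks are called promoter peaks. After overlapping peaks were merged the distal peaks covered 1179 regions, of which 654 held distal peaks of both lists. Because neither mark was profiled in a replicate, differences between wt and wt+TNFa were not tested, and the counts and medians below describe these libraries. Shares are percentages of peaks. The intervals given for the main ones are 95% Wilson intervals, and such an interval covers counting over peaks only. The organoids are a culture of epithelial cells without stroma or immune cells, and 9 of 9 epithelial marker genes had a promoter peak in wt and 8 of 9 in wt+TNFa, where Krt20 had none. None of 19 marker genes of fibroblasts, muscle, immune, endothelial and neural cells had a promoter peak in either list.

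H3K4me3, trimethylation of lysine 4 on histone H3, is deposited around active and poised promoters, mostly at CpG-rich sequence where transcription begins. H3K27me3 is placed by Polycomb complexes at silenced genes, and the presence of both marks at 1 site is called bivalent. H3K4me3 away from a listed start can mark a start that the annotation does not hold, the edge of a broad promoter domain, a strong enhancer, or a gene of another class such as a tRNA gene, and a peak list alone does not separate these.

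The sequence at a few summits shows the range of the distal peaks. Each sequence below is from the GRCm38/mm10 reference, plus strand, and runs 100 bp to either side of a peak summit, with CG dinucleotides in capitals. The regions were picked from the peaks with the highest fold enrichment, in the whole distal list or among those found in 1 list alone, and none of them overlapped an annotated exon.

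Lncppara, wt+TNFa, chr15:85671465-85671665: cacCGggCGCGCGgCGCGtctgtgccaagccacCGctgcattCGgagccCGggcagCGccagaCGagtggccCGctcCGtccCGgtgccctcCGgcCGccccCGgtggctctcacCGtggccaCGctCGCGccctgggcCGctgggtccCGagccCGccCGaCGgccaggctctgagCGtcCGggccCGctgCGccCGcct
Rabepk, wt, chr2:34802500-34802700: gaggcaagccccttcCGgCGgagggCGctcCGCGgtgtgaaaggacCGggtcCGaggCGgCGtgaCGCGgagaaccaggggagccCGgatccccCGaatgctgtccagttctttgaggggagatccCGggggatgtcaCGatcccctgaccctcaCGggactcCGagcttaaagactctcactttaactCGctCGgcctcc
Celsr1, wt+TNFa, chr15:86029331-86029531: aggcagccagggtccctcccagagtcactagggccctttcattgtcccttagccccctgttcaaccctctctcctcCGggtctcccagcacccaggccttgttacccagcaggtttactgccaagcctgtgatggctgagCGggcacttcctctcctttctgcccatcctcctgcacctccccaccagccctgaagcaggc
4930517M08Rik, wt, chr17:4626247-4626447: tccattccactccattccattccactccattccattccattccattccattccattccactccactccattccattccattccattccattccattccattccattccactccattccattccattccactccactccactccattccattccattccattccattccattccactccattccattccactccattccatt

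The window in Lncppara held 31 CG dinucleotides at 80.1% G+C, and the window 5′ of Rabepk held 19 at 65.7%. Both belonged to peaks present in both conditions. The Celsr1 window, from a peak in intron 1 that only the wt+TNFa list held, had 2 CG dinucleotides although its G+C was 62.2%. The window near 4930517M08Rik came from the strongest peak that only the wt list held. It was a simple repeat with 29 copies of ATTCC and no CG dinucleotide, and 90.0% of its bases were repeat-masked.

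Distal peaks were narrower and weaker than promoter peaks. Their median width was 721.5 bp in wt and 741.5 bp in wt+TNFa, against 1471 and 1576 bp for promoter peaks. The median fold enrichment, which MACS2 gives as ChIP signal over local background, was 8.21 and 8.27, against 26.5 and 29.0. The ranges overlapped widely, because the strongest distal peaks reached the level of the promoter peaks.

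**Figure D1:**
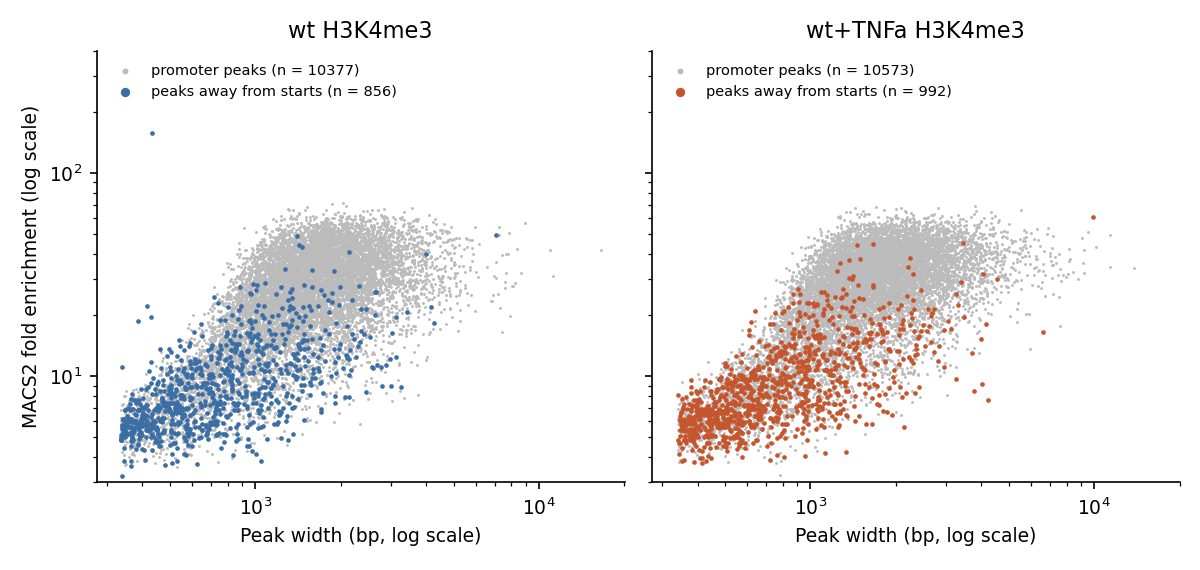
Width in bp (x axis, log scale) against MACS2 fold enrichment (y axis, log scale) of every autosomal H3K4me3 peak, with wt on the left and wt+TNFa on the right. Distal peaks are coloured and promoter peaks grey. Most distal peaks sit in the narrow, weak corner with medians of 721.5 bp and 8.21-fold in wt, and 1 wt peak stands alone at 157.5-fold and 433 bp.

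The widest distal peak of both lists lay in an intron of the long non-coding RNA gene Lncppara on chromosome 15, with Ppara, a regulator gene of fatty acid oxidation, as the nearest protein-coding gene. It spanned 7066 bp in wt (chr15:85668658-85675723) with a fold enrichment of 49.7, and 9931 bp in wt+TNFa (chr15:85666488-85676418) with 61.1. The wt+TNFa peak also overlapped a wt peak of 1708 bp, and both wt peaks together spanned 9258 bp. Its G+C within 150 bp of the summit was 75.1% and its CpG observed-to-expected ratio 1.05. The second strongest wt+TNFa peak lay in intron 1 of Tns3, which encodes the focal adhesion protein tensin 3. It was 3459 bp wide at 45.3-fold in wt+TNFa and 840 bp wide at 15.9-fold in wt. Sf3b5, a subunit gene of the SF3B splicing complex, had a distal peak of 43.2-fold in wt and 44.6-fold in wt+TNFa, 2689 and 2527 bp from the nearest GENCODE start. In the intergenic space 82812 bp from the nearest protein-coding start of GENCODE, that of Arhgap32, a peak reached 48.9-fold in wt and 44.1-fold in wt+TNFa.

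Several of these peaks covered a start that another annotation holds. A RefSeq transcript start lay inside the Tns3, Sf3b5 and Arhgap32 peaks. Of the 100 distal peaks with the highest fold enrichment, 38 in wt and 43 in wt+TNFa had a RefSeq start within 1000 bp. Over all distal peaks the count was 178 of 856 (20.8%) and 183 of 992 (18.4%), and it was 37 and 38 when only curated RefSeq transcripts were used. Distal peaks with a RefSeq start nearby were wider than those without, with medians of 972 against 682 bp in wt and 981 against 692 bp in wt+TNFa. The label of these peaks as away from starts thus holds for the GENCODE annotation, and 678 wt and 809 wt+TNFa peaks were away from the starts of both annotations.

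The gap between a distal peak and the nearest GENCODE start had a median of 6068 bp in wt and 6278 bp in wt+TNFa. In wt, 128 peaks lay more than 1000 and up to 2000 bp from a start, 238 up to 5000 bp, 470 up to 50000 bp and 20 beyond. The wt+TNFa counts were 142, 264, 555 and 31. The summits fell about equally on both sides, with 50.5% and 50.6% downstream of the nearest start. At the limit itself, the 3 closest members in wt had gaps of 1007 bp (near Gm23238), 1018 bp (near Sult1d1) and 1029 bp (near Zfp36), and the 3 peaks just left out had gaps of 996, 992 and 991 bp (near Arhgap23, D630039A03Rik and 2410080I02Rik). In wt+TNFa the gaps were 1010, 1022 and 1031 bp inside (near Gm11696, BC051077 and Lama5) and 986, 981 and 967 bp outside (near Cirbp, Irf2bp1 and Ppp1r9b).

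**Figure D2:**
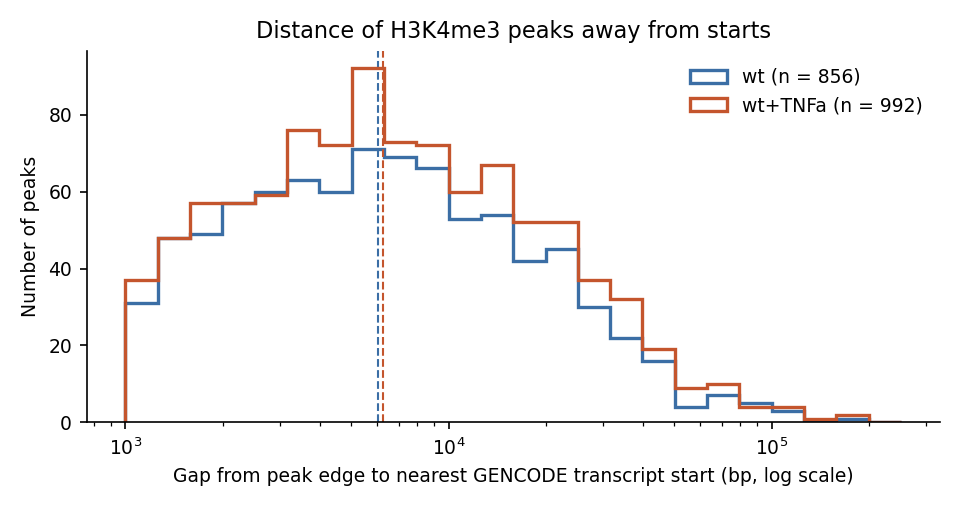
Number of distal peaks (y axis) by the gap in bp from the peak edge to the nearest GENCODE transcript start (x axis, log scale), as step lines for wt and wt+TNFa, with dashed lines at the medians. Both distributions rise from the 1000 bp limit to medians of 6068 and 6278 bp and thin out beyond 50000 bp.

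The most remote peaks were modest in strength. The farthest wt peak, on chromosome 8 (chr8:30823434-30824166), lay 179742 bp from the nearest start with a fold enrichment of 9.10, and a wt+TNFa peak with 11.8-fold overlapped it. The farthest wt+TNFa peak lay 187693 bp from Dmrta1 on chromosome 4 (chr4:89875891-89876280) with 7.12-fold, its summit window was entirely repeat-masked, and no wt peak overlapped it. The peak next in distance in wt, 118355 bp from any start on chromosome 7, overlapped the tRNA gene n-TEttc7 and had 15.02-fold in wt and 13.7-fold in wt+TNFa.

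By position of the summit, 444 wt distal peaks (51.9%, interval 48.5 to 55.2%) were intergenic, 322 intronic (37.6%), 59 in coding exons (6.89%), 18 in 3′ UTRs (2.103%) and 13 in exons of non-coding transcripts (1.52%). The wt+TNFa shares were 52.2% intergenic, 36.8% intronic, 6.75% coding and 1.61% in 3′ UTRs. Promoter peaks in comparison had 3.21% and 3.03% of summits outside genes, which follows from the rule. Among intronic distal summits that could be numbered, 134 of 277 in wt and 154 of 311 in wt+TNFa lay in intron 1, and 186 and 226 in intron 1 or intron 2. The nearest start belonged to a protein-coding gene for 62.1% and 59.4% of distal peaks, to a lincRNA for 10.7% and 11.2%, and to a processed pseudogene for 7.71% and 9.68%. The nearest protein-coding gene itself had a promoter peak for 75.8% and 76.1% of distal peaks, against 51.8% and 52.5% of all 20780 autosomal protein-coding genes.

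Some distal peaks were neighbours of promoter peaks. A promoter peak of the same list lay within 1000 bp of 68 wt and 87 wt+TNFa distal peaks (7.94% and 8.77%), and within 5000 bp of 226 and 260. The promoter peaks beside the 68 and 87 were wide, with medians of 2409 and 2953 bp. Of the 68 in wt, 34 overlapped a promoter peak of wt+TNFa, so that the same site was distal in 1 list and part of a promoter peak in the other. This was so for 10 of the other 788 wt distal peaks. In the wt+TNFa list it was 12 of 87 and 3 of 905.

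Distal peaks had less G+C and fewer CG dinucleotides than promoter peaks. Within 150 bp of the summit the median G+C was 54.8% in wt and 54.0% in wt+TNFa, against 67.8% and 67.4% at promoter peaks. The median CpG observed-to-expected ratio was 0.465 and 0.467, against 0.805 and 0.796. Windows with over 50% G+C and a ratio above 0.6 made up 32.1% and 27.7% of distal summits and 79.8% and 78.4% of promoter summits. Windows mostly of repeat-masked bases made up 5.49% and 5.24% of distal summits, against 0.260% and 0.340%.

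Short motifs, searched in the same windows on both strands, differed in frequency between distal and promoter summits, and a match is a description of the letters, not of a bound site. The GC box GGGCGG stood in 30.02% of wt distal windows and 58.8% of wt promoter windows, and in 27.02% and 57.9% in wt+TNFa. The A+T-rich motifs were more frequent at distal summits, with TATAAA in 7.71% against 2.19% and the GATA motif AGATAA in 8.41% against 3.03% in wt. The AP-1 motif TGANTCA stood in 5.84% of wt distal and 2.81% of wt promoter windows, and in 6.85% and 2.65% in wt+TNFa. CCAAT stood in 25.2% of wt distal windows and 15.5% of wt promoter windows. The NF-κB motif GGANTTTCC was rare, at 10 distal windows in wt (1.17%) and 11 in wt+TNFa (1.109%), against 0.887% and 0.889% of promoter windows.

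Most distal peaks were found in both conditions. Of the 856 wt distal peaks, 663 overlapped distal wt+TNFa peaks alone, 44 overlapped a promoter peak and 149 had no wt+TNFa peak (17.4%, interval 15.01 to 20.1%), where 3.26% of all autosomal wt peaks had none. Of the 992 wt+TNFa distal peaks, 659 overlapped distal wt peaks alone, 15 a promoter peak and 318 had no wt peak (32.1%, interval 29.2 to 35.0%), where 6.58% of all autosomal wt+TNFa peaks had none. Promoter peaks without a partner made up 2.09% in wt and 4.19% in wt+TNFa. The wt+TNFa list was the longer one. When both lists were cut to their 11233 strongest peaks, wt had 856 distal peaks with 22.1% unmatched and wt+TNFa had 833 with 24.1% unmatched. The wt+TNFa peaks were also stronger, with a median −log10 q of 185 against 166 over all autosomal peaks. The study's reporting summary lists more reads for the wt+TNFa H3K4me3 library than for the wt one. The deeper sequencing and a difference between the cultures cannot be told apart in these shares.

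Peak strength went with overlap. In wt, 39.5% of distal peaks with a −log10 q under 15 had no wt+TNFa peak, and the share was 19.7% from 15 to 30, 6.10% from 30 to 60 and 3.91% from 60 on. Promoter peaks of the same strength had shares of 37.0%, 16.3%, 3.75% and 0.0571%. In wt+TNFa the distal shares were 73.2%, 43.5%, 13.0% and 2.27%, and the promoter shares 58.3%, 33.6%, 13.9% and 0.410%. Within the classes under 60 the intervals of distal and promoter peaks overlapped in wt, and in wt+TNFa they overlapped only from 30 to 60. Only 20.9% of wt and 22.2% of wt+TNFa distal peaks were in the class from 60 on, which held 84.3% and 85.4% of promoter peaks.

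**Figure D3:**
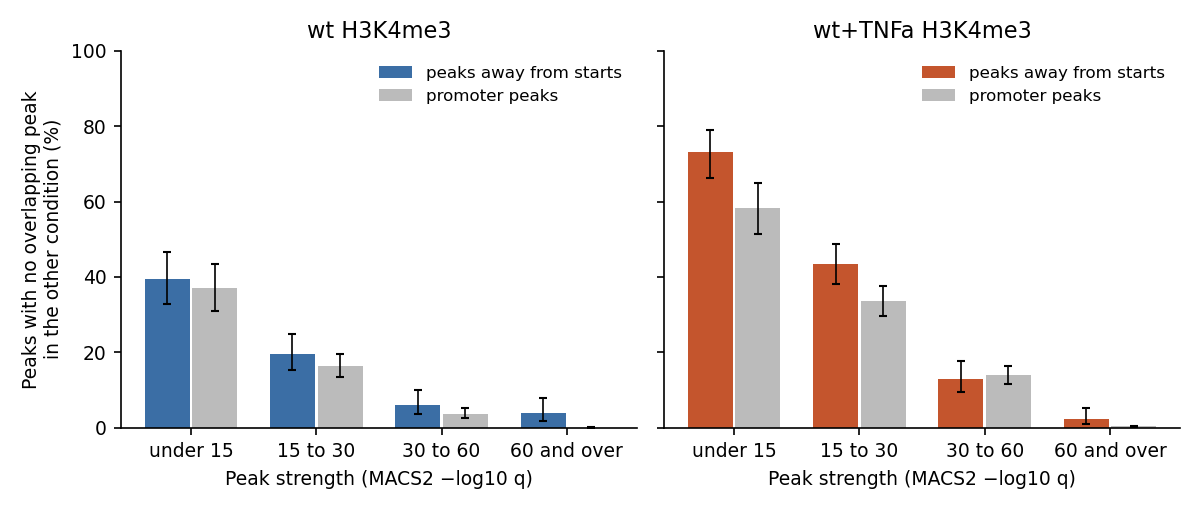
Percentage of H3K4me3 peaks with no overlapping peak in the other condition (y axis) by class of MACS2 −log10 q (x axis), for distal peaks in colour and promoter peaks in grey, wt left and wt+TNFa right. Bars are shares and error bars 95% Wilson intervals. The share of wt distal peaks falls from 39.5% to 3.91% with rising strength and that of wt+TNFa distal peaks from 73.2% to 2.27%.

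Where exactly 1 distal peak of each list overlapped, which gave 639 pairs, the wt+TNFa peak was the wider in 439 (68.7%) and the median ratio of widths, wt+TNFa over wt, was 1.09. The 10001 pairs of promoter peaks gave 74.7% (interval 73.85 to 75.55%) and 1.07, against an interval of 65.0 to 72.2% for the share of distal pairs. The summits of the distal pairs were a median of 59 bp apart. Another 6 wt and 9 wt+TNFa distal peaks overlapped more than 1 peak of the other list. The Tchh peak, over the coding exon of the hair and tongue protein trichohyalin, was 4156 bp wide in wt+TNFa and overlapped 2 wt peaks that spanned 3286 bp together. A peak of 4232 bp in intron 1 of Egln3, an oxygen-sensing prolyl hydroxylase, overlapped 2 wt peaks over 3338 bp. An intergenic wt+TNFa peak on chromosome 1 (chr1:55888214-55894788) of 6575 bp overlapped 3 wt peaks with a summed width of 4108 bp, which spanned 6570 bp with the gaps between them.

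Distal peaks of both lists were the more CpG-rich. Their median CpG observed-to-expected ratio was 0.4997 in wt and 0.528 in wt+TNFa, against 0.320 and 0.363 for distal peaks of 1 list alone, and their median G+C was 55.5% in both lists against 51.8% and 51.5%. They were also wider (793 and 922 bp against 460 and 504 bp) and had a RefSeq start within 1000 bp more often (22.2% and 22.7% against 14.1% and 9.43%). Their median fold enrichment was higher too, at 9.01 and 10.1 against 6.17 and 6.27. Among distal peaks with a −log10 q of at least 30, the median CpG ratio was 0.644 against 0.252 in wt. In wt+TNFa it was 0.583 against 0.512 there. The part of peak strength in this difference was not tested.

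**Figure D4:**
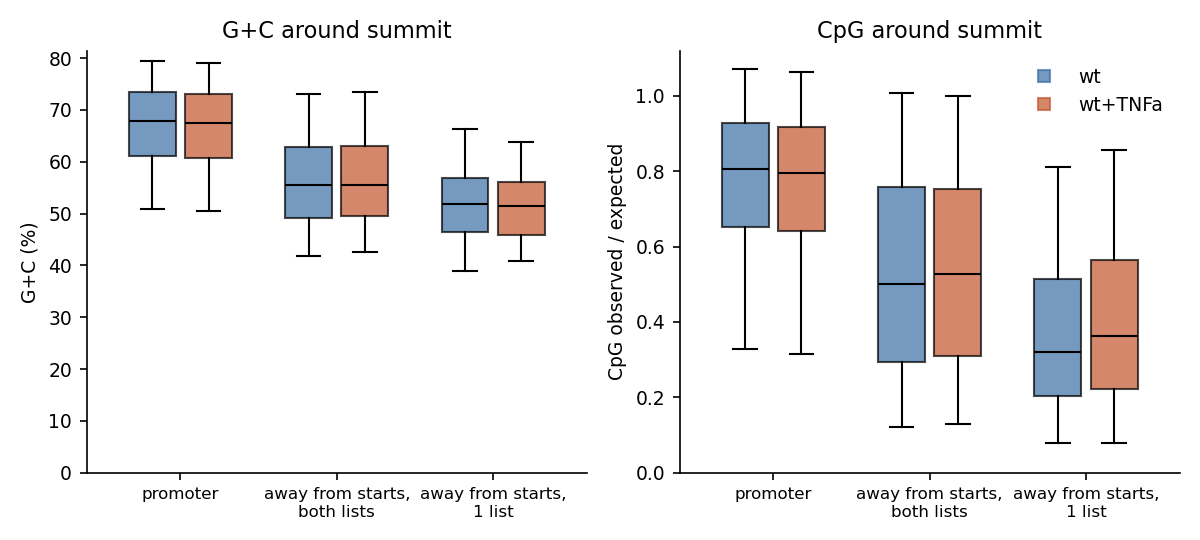
G+C in percent (left) and CpG observed-to-expected ratio (right) within 150 bp of the summit, for promoter peaks, distal peaks overlapped by a peak of the other list, and distal peaks of 1 list alone. Boxes span the middle quartiles with the median as a line, and whiskers reach the 5th and 95th percentiles. Medians fall from 67.8% to 55.5% to 51.8% G+C in wt.

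Of the 5 strongest distal peaks of wt+TNFa without a wt partner, 4 lay inside genes. The highest was a 1400 bp peak of 16.2-fold in intron 1 of Parva (chr7:112498410-112499809), which encodes the focal adhesion protein α-parvin. A 2668 bp peak of 14.8-fold lay in intron 1 of Celsr1 (chr15:86027679-86030346), a planar polarity cadherin and the source of the CpG-poor window printed above. The next were an intergenic peak of 14.6-fold 37317 bp from Cd9, a tetraspanin gene, a peak of 14.1-fold in a coding exon of Hepacam, a cell adhesion gene, and a peak of 13.8-fold in intron 4 of Ltbp4, a TGF-β binding protein gene. Repeat-masked bases made up 71.4% of the bases within 150 bp of the summit at Parva and 87.7% near Cd9.

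In wt the strongest unmatched distal peaks were narrow for their strength. The peak near 4930517M08Rik (chr17:4626166-4626598) had 157.5-fold in 433 bp, the highest fold enrichment of any distal peak, at the ATTCC repeat printed above. Others were a 430 bp peak of 19.6-fold in intron 11 of Deaf1, a 386 bp peak of 18.7-fold in intron 1 of Prkdc with a fully repeat-masked summit window, and an 878 bp peak of 14.4-fold in a coding exon of the cell cycle gene Cdc27. A second coding exon of Cdc27 held another unmatched wt peak of 13.6-fold, chosen after its value was seen. Of the 20 wt distal peaks with a −log10 q of at least 30 and no partner, 10 were under 500 bp wide (50%), against 11 of the 372 with a partner (2.96%). In wt+TNFa it was 3 of 38 (7.89%) against 11 of 435 (2.53%). Repeat-masked bases made up most of the summit window in 4 of the 20 wt peaks without a partner (20%), against 13 of the 372 with one (3.50%), and in 6 of 38 (15.8%) against 17 of 435 (3.91%) in wt+TNFa. The part of these repeats in the unmatched peaks was not tested. How uniquely reads map at the ATTCC repeat and the Cdc27 exons was not tested either.

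H3K27me3 overlapped few distal peaks. It covered at least 1 bp of 65 wt distal peaks (7.59%, interval 6.00 to 9.56%), where it covered 7.4% of all autosomal wt peaks and 7.38% of promoter peaks. In wt+TNFa it covered 71 (7.16%, interval 5.71 to 8.93%), where it covered 7.96% of all autosomal peaks and 8.04% of promoter peaks. The shares of distal peaks were thus near those of the whole lists. The H3K27me3 peaks covered 101.5 Mb of the autosomes in wt and 227.9 Mb in wt+TNFa. The peak names of 3 of the 4 lists mention a spike-in and those of the wt+TNFa H3K27me3 list do not, so both H3K27me3 lists may have been made differently, and the effect of this was not tested. Of the 65 wt peaks, 51 were also covered by wt+TNFa H3K27me3, and of the 71 wt+TNFa peaks 58 were covered by wt H3K27me3.

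The distal peaks with both marks were CpG-rich. Their median CpG observed-to-expected ratio was 0.873 in wt and 0.822 in wt+TNFa, against 0.441 and 0.443 for distal peaks without H3K27me3, and the median G+C was 69.8% and 66.8% against 53.8% and 53.2%. Their fold enrichment was about that of the others, with medians of 9.21 and 8.20 against 8.17 and 8.34. The strongest in wt lay 15238 bp from Cbx8, a gene for a Polycomb protein, and had 26.6-fold H3K4me3 in wt and 18.9-fold in wt+TNFa, with H3K27me3 of 4.01-fold and 6.32-fold. The strongest in wt+TNFa lay at a RefSeq start of Tln2, the talin 2 gene, 72808 bp from its nearest GENCODE start, with 34.5-fold in wt+TNFa and 22.4-fold in wt. Peaks over the skin barrier gene Lor (22.2-fold in wt) and over Tchh (18.2-fold in wt+TNFa), both in the epidermal differentiation region of chromosome 3, carried H3K27me3 too, as did those near the potassium channel gene Kcnn1, in intron 1 of Mef2b, near Rab6b and in a coding exon of Zfpm1. Of the 65 wt peaks 11 had no wt+TNFa partner (16.9%), against 17.4% of distal peaks without H3K27me3, and in wt+TNFa it was 20 of 71 (28.2%) against 32.4%. The 11 included an 11.6-fold peak in intron 1 of the morphogen gene Shh and an 11.8-fold peak in intron 1 of Nrp2, both chosen after their values were seen.

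A share of the distal peaks lay near tRNA genes. Nuclear tRNA genes are transcribed by RNA polymerase III from promoter boxes inside the gene and are not among the GENCODE transcripts used for the rule, which held 0 of them. RefSeq lists 386 on the autosomes. One or more lay within 1000 bp of 50 wt distal peaks (5.84%, interval 4.46 to 7.62%) and 61 wt+TNFa distal peaks (6.15%, interval 4.82 to 7.82%), against 48 (0.463%) and 50 (0.473%) promoter peaks. The tRNA gene itself was overlapped in 38 and 44 cases. Of the 50 and 61 peaks, 26% and 24.6% also had a RefSeq start of another kind of transcript within 1000 bp. This was so for 20.5% and 18.1% of the distal peaks with no tRNA gene nearby. Distal and promoter peaks together came within 1000 bp of 151 of the 386 genes in wt (39.1%) and 171 in wt+TNFa (44.3%). This set was looked for after the distal peaks had been examined.

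The distal peaks near tRNA genes were stronger than the rest, with a median of 12.6-fold against 8.14-fold in wt and 12.1-fold against 8.09-fold in wt+TNFa, and 94.0% and 91.8% were intergenic. All 50 in wt had a wt+TNFa partner, and 52 of 61 in wt+TNFa had a wt partner, which left 0% and 14.75% unmatched, against 18.5% and 33.2% of the distal peaks with no tRNA gene nearby. The 9 without a partner had fold enrichments from 5.81 to 11.1, and 8 of them lay on chromosome 13. That chromosome held 15 of the 50 and 23 of the 61, and it had the largest distal share of all autosomes, 10.4% in wt and 13.9% in wt+TNFa. Trim27 alone was the nearest protein-coding gene of 4 wt tRNA peaks, from 4.87-fold to 13.7-fold, and of 5 in wt+TNFa, from 6.19-fold to 18.0-fold.

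The sequences of 3 of these genes are printed on the gene strand, with the B box motif GTTCGANNC in capitals where it occurs. They stand for the strongest wt peaks of this kind, both of which had a wt+TNFa partner, and for a peak that only wt+TNFa had, and they were chosen after their values were seen.

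n-TCgca55, chr11:97988246-97988317, minus strand: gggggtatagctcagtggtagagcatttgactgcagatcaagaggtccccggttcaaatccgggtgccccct
n-TKctt17, chr12:70969120-70969192, minus strand: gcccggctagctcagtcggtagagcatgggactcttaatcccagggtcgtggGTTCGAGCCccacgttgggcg
n-TEttc1, chr1:34434812-34434883, minus strand: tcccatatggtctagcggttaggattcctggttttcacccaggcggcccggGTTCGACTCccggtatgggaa

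The cysteine tRNA gene n-TCgca55 and its neighbour n-TCgca54 lay under the strongest wt peak of this kind, 33.3-fold and 1589 bp wide, 1300 bp from Plxdc1. It has no match to the motif as spelled. The lysine tRNA gene n-TKctt17 lay under a wt peak of 27.6-fold, 4909 bp from Psma3. The glutamate tRNA gene n-TEttc1 lay under a 10.9-fold wt+TNFa peak that wt lacked. The motif was present, on the gene strand, in 235 of all 386 tRNA genes (60.9%), in 40 of the 57 that a wt distal peak overlapped and in 43 of the 66 that a wt+TNFa distal peak overlapped. Within 150 bp of the summits, on either strand, it stood in 1.40% of wt distal and 1.68% of wt promoter windows.

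Each distal peak was assigned to its nearest protein-coding gene by start and to a protein-coding gene that held its summit. This gave 805 autosomal genes in wt, 3.87% of the 20780, and 937 in wt+TNFa, 4.51%. The autosomal members of 10 lists of genes were read against these shares. Assignment by distance does not show which gene a site belongs to.

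Genes for intestinal transcription factors, which set epithelial identity, included 5 of 22 in wt (Cdx2, Klf4, Klf5, Foxa1 and Hes1) and 9 of 22 in wt+TNFa (Cdx1, Cdx2, Klf4, Klf5, Ehf, Foxa1, Foxa2, Sox9 and Tcf7l2). When both lists were cut to equal numbers of peaks, an alternative chosen after seeing the data, the counts were 5 and 5. These genes had wide promoter peaks, from 3614 bp at Foxa2 to 10122 bp at Klf5, both in wt+TNFa. The distal peak was within 1000 bp of a promoter peak at 4 of the 5 genes in wt and 4 of the 9 in wt+TNFa, and within 5000 bp at 4 and 6.

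**Figure D5:**
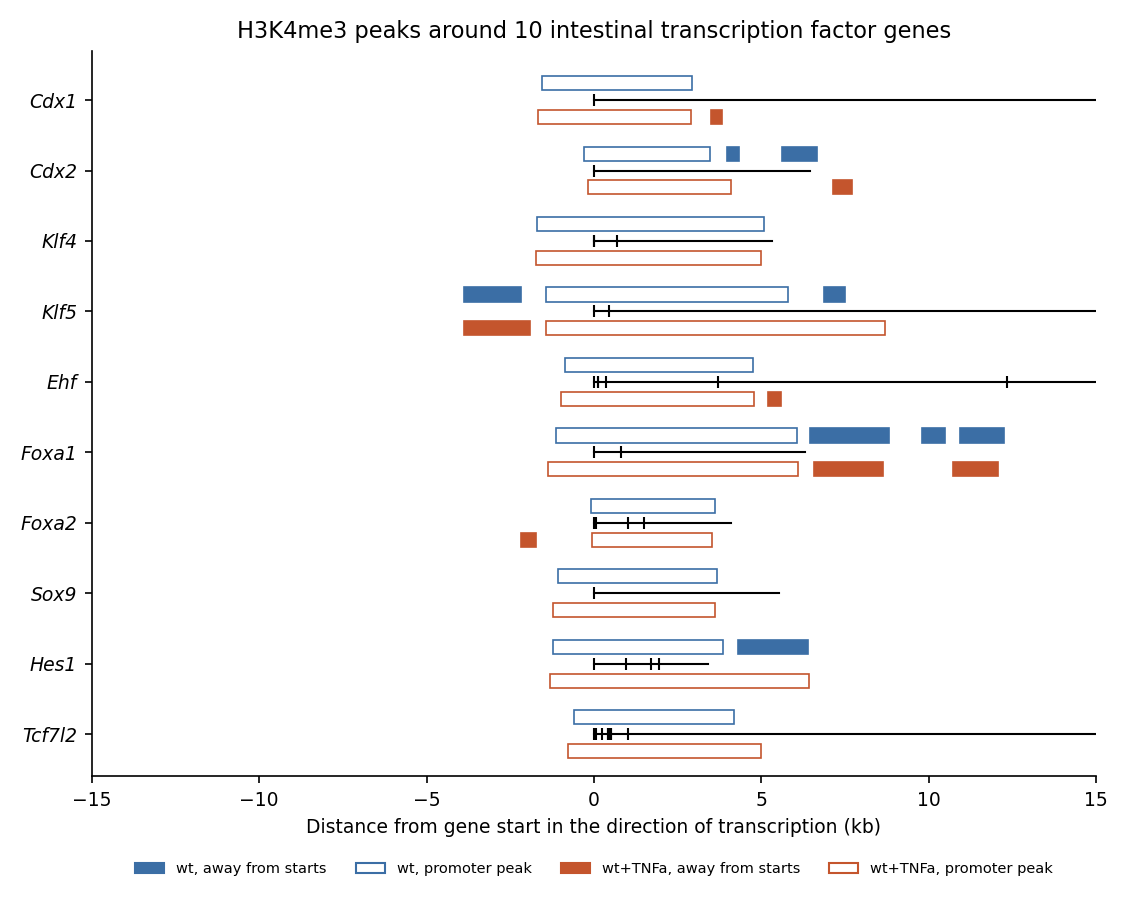
H3K4me3 peaks around the 10 intestinal transcription factor genes with a distal peak in either list, by distance in kb from the gene start in the direction of transcription (x axis). Filled bars are distal peaks, open bars promoter peaks, blue is wt and orange wt+TNFa, and black lines are gene bodies with ticks at transcript starts. At Cdx2, Klf5 and Hes1 a filled bar in 1 condition lies at the same distance as part of an open bar in the other, and the distal peaks of Klf4, Sox9 and Tcf7l2 and a remote one of Klf5 lie outside the range drawn.

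At Cdx2, the master gene of intestinal identity, 2 wt distal peaks of 5.61-fold lay in the 3′ UTR and in intron 2, the latter reached by the wt+TNFa promoter peak, and a wt+TNFa peak of 4.68-fold lay beyond the gene. At Foxa1, a pioneer factor gene of endodermal epithelia, 3 wt distal peaks of 21.5-fold, 4.91-fold and 7.38-fold lay past the promoter peak, the nearest 367 bp from it. The wt+TNFa list had 2 of them, at 11.5-fold and 6.37-fold. At Klf5, a growth-promoting factor of crypt cells, a peak 5′ of the gene was present in both conditions (9.21-fold in wt, 9.93-fold in wt+TNFa). The wt peak of 5.41-fold in intron 3 fell within the wt+TNFa promoter peak, which was 10122 bp wide against 7228 bp in wt. At Hes1, a Notch target gene, a 12.6-fold wt distal peak likewise lay inside the wt+TNFa promoter peak, 7732 bp wide against 5079 bp in wt. At Klf4, a goblet cell differentiation gene, the peak lay 118716 bp away (8.61-fold in wt and 9.20-fold in wt+TNFa), and it carried H3K27me3 in wt+TNFa and not in wt. The peaks at Cdx1 (4.68-fold), Ehf (3.78-fold), Foxa2 (6.19-fold, with H3K27me3) and the remote ones assigned to Sox9 (4.68-fold, 318852 bp) and Tcf7l2 (9.55-fold, 98007 bp) were in the wt+TNFa list alone.

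Genes of the NF-κB and TNF response included 3 of 33 in both conditions, Nfkbia, Tnfaip3 and C3. Nfkbia, the gene for the inhibitor IκBα, had a peak 26031 bp away in wt (6.41-fold) that was 7.68-fold in wt+TNFa. Tnfaip3, the gene for the feedback inhibitor A20, had a peak 27728 bp 5′ of its start at 11.6-fold in wt and 12.8-fold in wt+TNFa, and a second of 5.81-fold in a coding exon in wt+TNFa alone. The peak 5′ of the complement gene C3, which had no promoter peak in either list, was 342 bp wide at 5.26-fold in wt and 2094 bp wide at 7.87-fold in wt+TNFa.

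Among Hox genes, which encode positional identity, 3 of 39 in wt and 2 of 39 in wt+TNFa had a distal peak. Hoxb13, expressed in the hindgut, had 4 in wt and 5 in wt+TNFa. Those of 19.6-fold and 25.8-fold in wt, 3146 and 2661 bp wide, lay 20330 bp 5′ of the gene start and 8248 bp 3′ of it, and were 19.5-fold and 17.8-fold in wt+TNFa. A RefSeq transcript start lay inside the peak 3′ of the gene start in both conditions. Hoxa13 had a peak of 12.5-fold in wt and 13.0-fold in wt+TNFa. The wt peak at Hoxd12 (5.34-fold, with H3K27me3) overlapped a wt+TNFa promoter peak of 7280 bp.

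The other lists held few members. Of 19 stem cell and Wnt genes, 3 in wt (Ephb2, Lrig1 and Nkd1) and 2 in wt+TNFa (Ephb2 and Lrig1) had a distal peak. Ephb2, a receptor gene of crypt cell sorting, had a peak in intron 1 of 5.61-fold in wt and 5.57-fold in wt+TNFa. Lrig1, a stem cell growth inhibitor gene, had a peak in intron 1 in each list, 6.41-fold and 4.86-fold, and they did not overlap. Of 16 genes of regenerative epithelium, 0 in wt and 2 in wt+TNFa, Ccn1 (6.76-fold) and S100a6 (4.69-fold), had a distal peak. Of 10 goblet cell genes it was 0 and 1, the membrane mucin gene Muc13 with 9.18-fold in intron 3. Of 16 absorptive cell genes it was Scnn1a, an epithelial sodium channel subunit, in both (10.7-fold and 9.74-fold in a coding exon). None of 13 enteroendocrine, 11 tuft or 10 senescence genes had a distal peak in either list. Among the epithelial markers Epcam, an adhesion molecule gene, had 3 distal peaks 22549 to 33190 bp 5′ of its start in wt, from 6.02-fold to 8.88-fold, and all 3 were present in wt+TNFa. The fibroblast marker Dcn was the nearest protein-coding gene of a peak 165684 bp away (8.17-fold in wt and 11.1-fold in wt+TNFa) while it had no promoter peak.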

How the data were processed

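ChIP-seq for H3K4me3 and H3K27me3 was done on 1 library of wt and 1 of wt+TNFa organoids each, from organoids combined over several wells per the study's methods. The authors used fastp for trimming and BWA 2.2 for alignment against GRCm38/mm10, removed duplicates with SAMtools 1.11, applied a blacklist and called peaks with MACS2 2.1.0 against the input of the same condition, narrow for H3K4me3 and broad for H3K27me3, per the labels and the study's methods. The study's reporting summary names another MACS2 version and gives cutoffs and the broad setting, where the methods state default parameters. The deposited files give each peak's fold enrichment over local background and −log10 of its p and q values. Read depth is not in the peak lists. The study's reporting summary lists it, with the wt+TNFa H3K4me3 library deeper than the wt one, and it was not used here to scale the lists.

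Autosomal H3K4me3 peaks whose gap to every transcript start of GENCODE M21 (141767 transcripts) exceeded 1000 bp were kept. Overlap meant at least 1 bp. Position was that of the summit. Composition and motifs were read within 150 bp of it. tRNA genes, RefSeq starts and sequences came from RefSeq GRCm38.p6. Genes named were the 5 peaks per condition with the highest fold enrichment, greatest width, highest fold enrichment in 1 condition, highest fold enrichment with H3K27me3 and greatest distance, plus listed genes, and others are said to be chosen after their values were seen. The members and gene lists were chosen with earlier results of these data known. Intervals are 95% Wilson intervals. Python 3.11.15, numpy 2.4.6, scipy 1.17.1, pysam 0.24.0, matplotlib 3.10.9 and samtools 1.23.1 were used, and the interval functions were tested on simulated data. Alternatives covered the promoter window, the starts, the overlap and the peak filter. Some listed genes and peaks are not reported here.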

Additional observations from a re-analysis of the deposited data

How the results depend on the processing

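Of 118 alternative values for 24 results, 35 moved, that is, a count by more than 1.5 times and a share or median beyond the 95% interval of the reported value. The number of distal peaks depended on the definition. It was 490 in wt and 586 in wt+TNFa with a window of 5000 bp, and 1827 and 2005 with 1 start per gene. With starts of protein-coding genes only it was 1201 and 1356, which stayed within 1.5 times of the reported counts. It was 16 and 16 among the peaks whose −log10 q exceeded the median in their list. Of these, 31.25% and 25% had no partner among the peaks of the other list above its own median. Both lists were cut for this share, so it cannot be set against the shares by strength above, which used the whole other list. The share without a partner was 14.6% in wt and 28.5% in wt+TNFa with the other list extended by 1000 bp, 22.1% and 24.1% with equal numbers of peaks, 36.2% in wt+TNFa when 50% of the peak had to overlap, and 35.6% in wt+TNFa without peaks near RefSeq starts. H3K27me3 covered 5.92% of wt distal peaks with the 5000 bp window and 5.84% with H3K27me3 peaks of −log10 q of at least 2. The intergenic share was 55.6% and 55.7% with a 2000 bp window, 60% and 59.0% with 5000 bp, and 57.6% and 58.7% with protein-coding genes only. Without peaks near RefSeq starts the median width was 682 and 692 bp and the median fold enrichment 7.91 and 7.93. Median G+C was 51.95% and 51.25% within 500 bp of summits, and 53.5% and 52.8% at peak centres, and the CpG ratio within 500 bp was 0.4245 and 0.4216. The settings on RefSeq starts and tRNA genes, and equal numbers of peaks or a limit on the distance for the nearest genes and the intestinal transcription factors, were chosen after seeing the data. The causes were not tested. No paired analysis was possible because each condition had 1 library per mark, and no replicate could be left out.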

Other observations

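Genes with at least 4 distal peaks nearest to them in either condition were looked for after the values were seen. Mecom, a zinc finger regulator gene, had 4 in each condition, all in introns 2 to 4. Among them was a 1482 bp peak of 12.9-fold in intron 3 that only wt+TNFa had, and a 2584 bp wt peak of 11.1-fold was 1721 bp wide at 7.30-fold in wt+TNFa. Klf3, a Krüppel-like factor gene, had 4 in each condition, from 4.87-fold to 7.21-fold in wt and from 5.99-fold to 8.24-fold in wt+TNFa. The Lncppara gene held all 5 peaks nearest to Ppara in each condition. Beside its widest peak, 1 of 1235 bp and 4.97-fold in wt was 2370 bp wide at 12.9-fold in wt+TNFa. Parp8 had 4 peaks of 4.87-fold to 6.93-fold, 212923 to 305064 bp away, in wt+TNFa alone, and 3 of them carried H3K27me3. Wnt7b, a Wnt ligand gene, had 4 in wt, from 5.81-fold to 15.7-fold, and 2 in wt+TNFa, of 16.9-fold and 9.93-fold. Of the 4 in wt, 2 overlapped these, 1 of 5.81-fold overlapped a wt+TNFa promoter peak and 1 of 5.97-fold had no wt+TNFa peak. 2010111I01Rik had 1 in wt and 4 in wt+TNFa.

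The nearest start belonged to a microRNA gene for 22 distal peaks in wt and 23 in wt+TNFa. Of 19 wt peaks of this kind with a single wt+TNFa partner, 13 had the higher fold enrichment in wt+TNFa and 6 in wt, where 390 of all 639 distal pairs (61.0%) were higher in wt+TNFa, and 3 wt and 4 wt+TNFa peaks had no partner. The microRNA genes named here were chosen after their values were seen. The peak 2026 bp from Mir339 was 10.2-fold in wt and 20.8-fold in wt+TNFa. A pair of peaks near Mir148a, 95399 and 91668 bp away in wt, had 7.38-fold and 6.80-fold in wt and 13.3-fold and 11.2-fold in wt+TNFa. In the other direction, a peak near Gm22914 had 10.95-fold in wt and 8.72-fold in wt+TNFa, and a peak near Gm22461 of 11.8-fold was in wt alone. The peak 6100 bp from Mir193a had 5.99-fold and was in wt+TNFa alone. With 1 library per condition, none of these differences could be tested.

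H3K4me3 peaks of either list were missing from 7 autosomal stretches of at least 5 Mb, 55.65 Mb in all with 276 protein-coding genes, of which 233 lay in a single stretch of chromosome 2. None of the listed genes lay in these stretches. Whether rows of the peak lists are missing there was not tested, so no absence of the mark is read from them.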
